A study of Mus musculus with 24 samples.

Results

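Oxidative phosphorylation is carried out by 5 protein complexes of the inner mitochondrial membrane, and the genes described here are the subunits of these complexes that are encoded in the nucleus and named by the older Nduf, Sdh, Uqcr, Cox and Atp5 symbols. Members were the genes of the deposited table whose symbol begins with Ndufa, Ndufb, Ndufc, Ndufs or Ndufv and a digit, is Sdha, Sdhb, Sdhc or Sdhd, begins with Uqcr or Atp5, or begins with Cox, a digit from 4 to 8 and a, b or c. Symbols with -ps, which mark pseudogenes, were set aside, and a member needed at least 10 counts in every one of 24 mice. Of 46983 genes in the table, 82 matched the names and 79 had enough counts. The 3 that did not were Cox8b with 1 to 102 counts, Cox7b2 with 0 to 11 counts and Cox8c, which had no read in any mouse. The 4 members nearest to the minimum were Cox7a1, Cox6b2, Ndufa4l2 and Cox6a2, with lowest counts of 12, 16, 20 and 21, and the next lowest was Ndufb2 with 267.

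The counts came from bulk mRNA of hippocampal punches, dorsal and ventral together, of adult female mice labelled C57BL/6 that had gone through behavioural tests and a structural MRI scan. The 4 groups of 6 mice were Fkbp5lox/lox control, Fkbp5lox/lox ELS, Fkbp5Nex control and Fkbp5Nex ELS, and all 24 carried Fkbp5 alleles flanked by loxP sites. Fkbp5lox/lox mice lacked Cre and stood for the wild type, while in Fkbp5Nex mice Cre driven by Nex (Neurod6) deletes Fkbp5, which codes for the glucocorticoid receptor co-chaperone FKBP51, in glutamatergic forebrain neurons from embryonic life on, but not in the dentate gyrus. ELS, or early life stress, was limited bedding and nesting material from the second to the ninth postnatal day. The study asked whether FKBP51 in these neurons shapes the lasting effects of ELS.

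Electrons from NADH enter the respiratory chain at complex I and those from succinate at complex II, pass through complex III and cytochrome c to complex IV, which reduces oxygen, and the proton gradient built on the way drives ATP synthesis by complex V. The cores of complexes I, III and IV and part of the membrane sector of complex V are encoded in mitochondrial DNA, so each of these complexes is assembled from products of both genomes, whereas complex II is encoded in the nucleus alone. In neurons this pathway supplies most of the ATP used for ion pumping and synaptic transmission.

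Total counts per mouse ranged from 18347283 to 26555623, and the members took from 0.859% to 1.21% of them. Fkbp5 had 1078 to 1602 counts in the Fkbp5lox/lox mice and 169 to 582 in the Fkbp5Nex mice, so the genotypes did not overlap. Markers of hippocampal glutamatergic neurons were present in every mouse, with a mean level of 6.90 to 8.11 log2 CPM (counts scaled to library size, CPM, on a log2 scale) over 8 genes. Markers of neighbouring tissue varied widely: 4 tested choroid plexus genes averaged between -0.22 and 7.62 log2 CPM, and the choroid plexus marker Folr1 ranged from 0 to 776 counts. In bulk tissue, fewer cells of a type and less RNA per cell cannot be told apart. Each sample is a separate mouse, and the labels give no sequencing batch. The paper states that rearing was assigned to whole litters with their dams, and the labels give no litter. Littermates may be alike, so the tests below, which treat each mouse as separate, may understate the error of ELS and interaction effects.

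The members comprised 35 subunits of complex I, 4 of complex II, 8 of complex III, 14 of complex IV and 15 of complex V. A further 3 matched by name without being subunits of a complex, namely Cox7a2l, which takes part in forming supercomplexes of the chain, and Atp5s and Atp5sl, which bear ATP synthase names. Ndufa4, first placed in complex I, was counted in complex IV. All 79 were matched to GENCODE vM21 (GRCm38) and lay on 19 chromosomes. Exons of another gene overlapped 28 of them, and 15 had a near-identical copy elsewhere, defined as at least 97% identity over at least 100 bases. Whether counting used strand or reads with several alignments is not given in the sources used here, so the levels of these members are uncertain. Examples are Ndufb2 (chromosome 6, 39592574 to 39603382, plus strand), whose annotated exons overlap those of Braf, and Atp5g2, whose principal transcript is matched by copies over 100% of its length.

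Promoters of members were searched for 5 motifs as a description. A link to the variation between mice, described further on, was not tested. In the RefSeq promoter table (GRCm38.p6, 250 bases before to 50 after the start), 67 of 79 members had an entry, and the first was taken for the 6 with several. The motif GCGCATGCG of NRF1 was found, on either strand, in 8 of the 67 (11.9%) against 1.81% of 27025 promoters in the table, and CCGGAAG of ETS factors such as GABPA in 15 (22.4%) against 9.12%. AAGATGGCG of YY1 was in 7 (10.4%) against 1.49%, AAGGTCA of ERR alpha in 8 (11.9%) against 4.66%, and CCAAT of NF-Y in 30 (44.8%) against 37.9%. At least 1 of the first 3 motifs was in 26 of the 67 and in 11.8% of all promoters. The median G+C content was 57.3% in members and 52.7% in all promoters, and the median ratio of observed to expected CpG was 0.82 and 0.39, so that G+C-rich letters are more frequent in the members' windows to begin with. These matches are descriptions of letters and not of binding. The 250 bases before the start are shown for 4 members, with matches in capitals: Cox6a1 and Atp5l, which held 3 and 4 of the 5 motifs, Ndufb2, the member that ran against the others, and Cox7a1, an isoform of low level.
Cox6a1 (chr5:115348959-115349208, minus strand): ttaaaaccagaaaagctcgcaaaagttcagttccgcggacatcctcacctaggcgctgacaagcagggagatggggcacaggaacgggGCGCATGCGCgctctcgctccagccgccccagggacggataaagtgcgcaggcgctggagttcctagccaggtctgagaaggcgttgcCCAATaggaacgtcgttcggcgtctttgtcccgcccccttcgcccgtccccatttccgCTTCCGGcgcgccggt
Atp5l (chr9:44920743-44920992, minus strand): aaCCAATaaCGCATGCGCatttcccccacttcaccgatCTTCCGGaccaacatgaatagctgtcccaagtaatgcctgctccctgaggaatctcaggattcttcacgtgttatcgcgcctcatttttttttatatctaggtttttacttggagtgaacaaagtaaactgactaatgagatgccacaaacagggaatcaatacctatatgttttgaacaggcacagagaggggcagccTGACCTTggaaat
Ndufb2 (chr6:39592315-39592564, plus strand): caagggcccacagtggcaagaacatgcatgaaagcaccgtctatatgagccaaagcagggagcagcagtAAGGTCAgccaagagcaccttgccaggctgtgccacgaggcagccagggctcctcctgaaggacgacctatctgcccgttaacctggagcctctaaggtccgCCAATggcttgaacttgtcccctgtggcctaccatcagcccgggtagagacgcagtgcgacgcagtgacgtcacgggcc
Cox7a1 (chr7:30183921-30184170, plus strand): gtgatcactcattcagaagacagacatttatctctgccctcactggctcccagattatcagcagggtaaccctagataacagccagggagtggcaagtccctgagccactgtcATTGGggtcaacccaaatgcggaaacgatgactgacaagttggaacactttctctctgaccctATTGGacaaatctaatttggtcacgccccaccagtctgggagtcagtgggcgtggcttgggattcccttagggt

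Levels per transcript length spanned a wide range within each complex and were highest in complexes IV and V. Levels are given in FPKM (fragments per kilobase of the gene's principal transcript, scaled to library size as CPM is), as the mean and SD of 24 mice, and were computed here from the counts. The highest members were Cox8a, a small subunit of complex IV, at 647 ± 66.0 FPKM (SD, n = 24), Atp5b, the catalytic beta subunit of ATP synthase, at 614 ± 41.2, and Cox6a1 at 490 ± 58.9. The means of Cox8a and Atp5b lay closer together than the SD of Cox8a, and their order within single mice was not examined. In complex V, Atp5b was followed by Atp5a1, the alpha subunit, at 345 ± 21.1 FPKM, and the lowest was Atp5g1 at 20.8 ± 2.69, a value that rests on a principal transcript of 4715 bases.

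In complex I the 2 highest members were the accessory subunits Ndufb9, at 189 ± 19.9 FPKM, and Ndufs5, at 148 ± 14.7, and the lowest was the accessory subunit Ndufc1 at 30.4 ± 3.56. Nuclear core subunits hold the flavin and iron-sulphur clusters or lie along the path of the electrons. Among them, levels were 85.1 ± 7.09 FPKM for Ndufv1, 82.2 ± 7.55 for Ndufs7, 75.5 ± 7.15 for Ndufv2, 74.6 ± 5.31 for Ndufs3, 60.0 ± 7.03 for Ndufs8 and 50.5 ± 2.81 for Ndufs1. The means of Ndufv2 and Ndufs3, and those of Ndufv1 and Ndufs7, lay closer together than their SDs. As the same mice gave both values of a pair, this does not show that the levels were equal. In complex II, the flavoprotein Sdha was at 145 ± 7.45 FPKM and the iron-sulphur protein Sdhb at 88.7 ± 8.89, and the membrane anchors Sdhd and Sdhc were at 73.2 ± 5.68 and 26.2 ± 2.04. In complex III, the hinge protein Uqcrh was highest at 200.03 ± 21.5, before Uqcr10 at 154 ± 16.6, and Uqcrq was lowest at 56.5 ± 6.86. The low values of Sdhc and Uqcrq rest in part on long principal transcripts. These were 3171 bases for Sdhc against 1231 for Sdhd, and 1521 for Uqcrq against 434 for Uqcr10.

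The hippocampus carried mainly 1 form of each complex IV subunit that has tissue-specific isoforms. Cox6a1 was 157.8 times the level per length of Cox6a2, known from heart and skeletal muscle, which was at 3.10 ± 0.842 FPKM. Cox6b1 was 58.4 times Cox6b2, a testis isoform at 3.99 ± 1.65 FPKM, and Cox7a2 was 52.2 times Cox7a1, a muscle isoform at 2.55 ± 0.919 FPKM. Ndufa4 was 167.4 times its paralogue Ndufa4l2, which is known as a hypoxia-induced gene, at 1.88 ± 0.459 FPKM. These 4 isoforms rest on 12 to 103 counts per mouse. In contrast, the 3 genes for the identical c-ring subunit of ATP synthase were all well expressed, with Atp5g3 at 250.3 ± 24.9, Atp5g2 at 143 ± 15.1 and Atp5g1 at 20.8 ± 2.69 FPKM, although reads of Atp5g2 may be shared with its copies. Their order also rests on the principal transcripts, of 4715 bases for Atp5g1, 441 for Atp5g2 and 714 for Atp5g3.

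**Figure D1:**
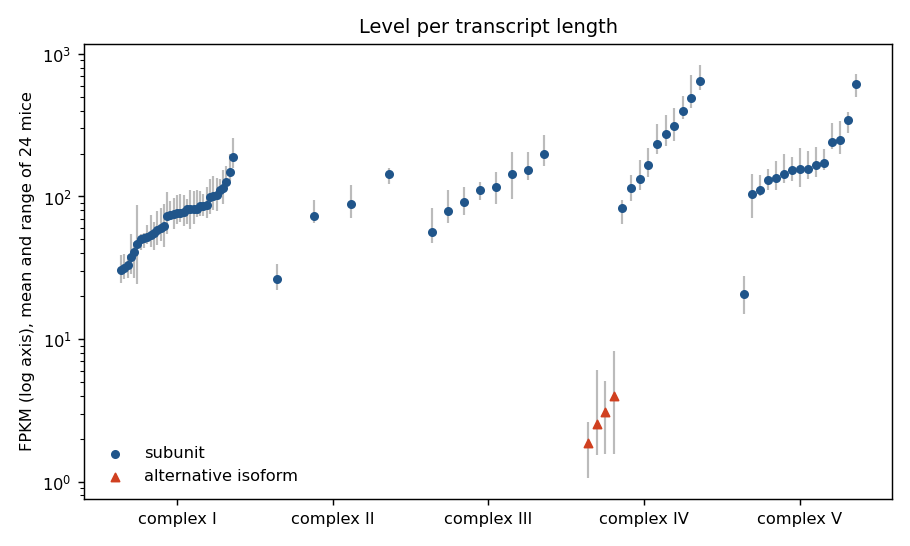
Level of 76 complex subunits in FPKM on a log axis, by complex, each as the mean (point) and the range (grey line) of 24 mice. Cox8a and Atp5b lead at 647 and 614 FPKM, and the 4 alternative isoforms of complex IV (triangles) lie between 1.88 and 3.99 FPKM, below every other subunit.

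Averaged over the 79 members, the 4 groups overlapped. The mean level was 6.22 ± 0.11 log2 CPM (SD, n = 6) in Fkbp5lox/lox control, 6.16 ± 0.10 in Fkbp5lox/lox ELS, 6.22 ± 0.19 in Fkbp5Nex control and 6.21 ± 0.04 in Fkbp5Nex ELS. The lowest, median and highest mouse were at 6.04, 6.23 and 6.36 in Fkbp5lox/lox control and at 6.01, 6.16 and 6.29 in Fkbp5lox/lox ELS. They were at 6.04, 6.15 and 6.58 in Fkbp5Nex control and at 6.15, 6.22 and 6.28 in Fkbp5Nex ELS. Group membership accounted for 5.41% of the variance of this mean between mice. The farthest from its group was Fkbp5Nex control mouse 52, which lay 0.36 log2 above its group mean, or 2.92 pooled SD. It held the highest level of all 24 mice for 67 of the 79 members. Mouse 12 of the same group held the lowest level for 27.

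**Figure D2:**
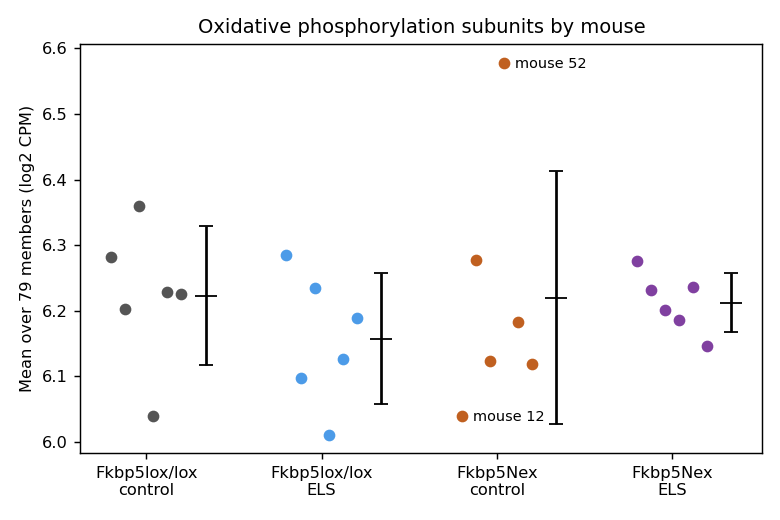
Mean of 79 members in log2 CPM for each mouse (points) by group, with the group mean and SD (bars). The groups overlap, and Fkbp5Nex control mouse 52 stands at 6.58, above all other mice, whose highest value is 6.36.

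For the tests, edgeR's quasi-likelihood model was fitted to the 16209 genes that reached 10 counts in all 6 mice of any group, with 5 surrogate variables that stand for unlabelled variation between mice, and called genes at a Benjamini-Hochberg adjusted p under 0.02. The surrogate variables took up 76.1% of the variance of the members' mean within groups, so fold changes are given with them and, beside these, without them. No member was called in any of 7 comparisons, with or without surrogate variables. Without them, no member reached an unadjusted p under 0.05 in any comparison, while 105 to 611 of all 16209 tested genes did in each direction.

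The effect of genotype over both rearing conditions was small for the members. With surrogate variables, none of 79 was called, while 0.117% of all tested genes were. At an unadjusted p under 0.05, 0 members were higher and 6 lower in Fkbp5Nex, beside 5.04% and 6.44% of all tested genes. The median log2 fold change of the members was -0.01, against -0.00 for all tested genes, and it was 0.03 without surrogate variables, which is the opposite sign. All 79 confidence intervals (95%) lay within 0.5 log2 of zero. The median standard error was 0.04.

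The smallest p for genotype belonged to Ndufa11, an accessory subunit in the membrane arm of complex I. Its lowest, median and highest levels were 49.2, 57.7 and 62.7 CPM in Fkbp5lox/lox control, 51.6, 54.0 and 61.9 in Fkbp5lox/lox ELS, 43.5, 52.5 and 76.4 in Fkbp5Nex control and 49.4, 52.2 and 57.8 in Fkbp5Nex ELS. The groups overlapped, and the highest Fkbp5Nex control value was that of mouse 52. The log2 fold change was -0.14 ± 0.04 (SE), with an adjusted p of 0.136 by edgeR's quasi-likelihood test, and -0.07 without surrogate variables. Atp5o, the oligomycin sensitivity subunit that joins the F1 head of ATP synthase to its stalk, had a log2 fold change of -0.11 ± 0.03 (adjusted p = 0.177, edgeR), and -0.03 without surrogate variables. Ndufv2, a core iron-sulphur subunit, had -0.09 ± 0.03 (adjusted p = 0.198, edgeR), and also -0.03 without them. Reads of Ndufa11 and Atp5o may be shared with genes that overlap their exons.

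Within the control condition, 8 members were lower in Fkbp5Nex and 0 higher at an unadjusted p under 0.05, beside 4.92% and 3.78% of all tested genes. None was called, against 0.0494% of all tested genes. The median log2 fold change was -0.05 with surrogate variables and 0.00 without them, and 67 of 79 members were negative with them but 35 without. Sign counts, here and below, stand without those of all tested genes beside them. They are therefore not read as particular to the members. The smallest p were those of Ndufv2, at -0.12 ± 0.04, and Ndufa11, at -0.17 ± 0.05, with adjusted p of 0.321 and 0.330 by edgeR, and of Atp5o, at -0.12 ± 0.04 (adjusted p = 0.462, edgeR). Without surrogate variables the 3 values were -0.04, -0.05 and -0.03. Within ELS, 9 members were higher in Fkbp5Nex and 1 lower at an unadjusted p under 0.05, beside 2.93% and 3.66% of all tested genes, and the median was 0.03, or 0.05 without surrogate variables. The sign thus differed from that in controls with surrogate variables only. None was called here either, against 0.0123% of all tested genes.

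Of these 9 members, 8 were subunits of complex I. Ndufa13, an accessory subunit also known as GRIM-19, was at 56.7, 69.1 and 81.3 CPM (lowest, median and highest) in Fkbp5lox/lox ELS and at 71.0, 74.4 and 81.5 in Fkbp5Nex ELS. Its log2 fold change was 0.15 ± 0.06 (adjusted p = 0.740, edgeR). Ndufb11, at 0.15 ± 0.06, and Ndufb8, at 0.17 ± 0.08, both accessory subunits of the membrane arm, had the same adjusted p of 0.740 (edgeR). Without surrogate variables the 3 values were 0.13, 0.12 and 0.14. For all 3 the highest Fkbp5lox/lox ELS mouse lay above the lowest Fkbp5Nex ELS mouse.

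Some marker genes of other cell types differed by genotype, but calls among them came with surrogate variables only. With surrogate variables, all 5 markers of dentate gyrus granule cells had an unadjusted p under 0.05 and were lower in Fkbp5Nex, 2 of them called, with a median log2 fold change of -0.49. Without them 4 had such a p, none was called and the median was -0.73. Their mean level ranged from 5.10 to 5.97 log2 CPM in Fkbp5lox/lox control, 4.74 to 6.96 in Fkbp5lox/lox ELS, 3.91 to 6.19 in Fkbp5Nex control and 4.26 to 5.62 in Fkbp5Nex ELS. The 4 tested choroid plexus markers had a median of -1.43, 1 called lower, and the 8 thalamic markers a median of 0.26, none called. Without surrogate variables these medians were -0.71 and 0.04, with none called. Only 4 of 8 choroid plexus markers passed the filter on counts, which a gene can pass through a single group where it is high. That can favour fold changes towards lower levels in other groups, so the choroid plexus values are not read as an effect of genotype. The mean level of the 4 was 4.89 log2 CPM in Fkbp5lox/lox control and 2.96 to 3.62 in the other groups. Of 8 markers of hippocampal glutamatergic neurons, 1 was called lower with surrogate variables and none without, at medians of 0.02 and 0.04. With surrogate variables, markers of GABAergic neurons, oligodendrocytes, astrocytes, microglia and endothelial cells had medians of -0.01, 0.15, 0.16, 0.07 and 0.12, none called. The correlation of the members' mean with the dentate, choroid plexus and thalamic levels across mice was -0.14, 0.12 and 0.02, and without mouse 52 it was -0.27, 0.34 and 0.02. The part of these markers in the members' values was not tested.

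ELS over both genotypes gave no call among the members, and 0% of all tested genes were called. At an unadjusted p under 0.05, 0 members were higher and 1 lower, beside 1.98% and 1.58% of all tested genes. The median log2 fold change was -0.01, and -0.04 without surrogate variables. The 1 member was Ndufb2, a small accessory subunit of complex I, whose lowest, median and highest levels were 18.8, 19.4 and 21.2 CPM in Fkbp5lox/lox control and 15.6, 18.7 and 21.8 in Fkbp5lox/lox ELS. They were 12.2, 19.8 and 21.3 CPM in Fkbp5Nex control and 14.9, 17.1 and 18.7 in Fkbp5Nex ELS. The groups overlapped, and the log2 fold change was -0.18 ± 0.05 (adjusted p = 0.9995, edgeR). Next by p were Atp5sl, at 0.09 ± 0.04, and Ndufb11, at -0.09 ± 0.05, both with an adjusted p of 0.9995 (edgeR). Without surrogate variables Ndufb2 was at -0.11, Atp5sl at 0.07 and Ndufb11 at -0.12.

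Within Fkbp5lox/lox, 65 of 79 members were negative after ELS, with a median log2 fold change of -0.05, and -0.06 without surrogate variables. None was called, and 0% of all tested genes were. At an unadjusted p under 0.05, 1 member was higher and 3 were lower, beside 2.85% and 2.01% of all tested genes. The 3 were Ndufb11, at -0.18 ± 0.07, Ndufb4, at -0.17 ± 0.07, and Cox7c, a small subunit of complex IV, at -0.14 ± 0.07, each with an adjusted p of 0.954 by edgeR. Without surrogate variables they were at -0.17, -0.13 and -0.15. Ndufb11 was at 64.6, 76.8 and 90.2 CPM (lowest, median and highest) in controls and 58.3, 70.5 and 77.2 after ELS. The ranges of the 2 groups overlapped. In the same comparison, without surrogate variables, 8 of 8 thalamic markers were positive, 7 of them at an unadjusted p under 0.05, with a median of 1.06, and the 4 choroid plexus markers had a median of -1.11. With surrogate variables these medians were 0.28 and 0.24, and none of these 12 markers was called in either fit. The mean thalamic level ranged from 2.92 to 3.79 log2 CPM in Fkbp5lox/lox control and from 3.24 to 5.31 in Fkbp5lox/lox ELS. That of choroid plexus ranged from 1.17 to 7.62 and from 0.56 to 6.02. The limit of the filter given above for choroid plexus markers, of which 4 of 8 were tested, holds here and for the interaction. The part of thalamic and choroid plexus markers in the members' values was not tested.

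Within Fkbp5Nex, 64 of 79 members were positive after ELS with surrogate variables and 19 without them, and the median was 0.04 and -0.03. None was called, and 0% of all tested genes were. At an unadjusted p under 0.05, 1 member was higher and 1 lower, beside 1.57% and 1.23% of all tested genes. They were Ndufa12, an accessory subunit, at 0.61 ± 0.22, and Ndufb2, at -0.25 ± 0.07, each with an adjusted p of 0.9996 by edgeR, and at 0.40 and -0.15 without surrogate variables. Uqcrb, a subunit of complex III, came next by p and had 0.12 ± 0.07 with surrogate variables and -0.03 without them.

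The interaction, the ELS effect in Fkbp5lox/lox minus that in Fkbp5Nex, had a median of -0.07 over the members, and -0.04 without surrogate variables. With them 72 of 79 members were negative, 32 of these in complex I and all 15 of complex V, and 58 were negative without them. None was called, and 0% of all tested genes were. At an unadjusted p under 0.05, 0 members were higher and 6 lower, beside 1.94% and 2.07% of all tested genes. The members shared much of their variation between mice, so such counts are not counts of separate events. The sign counts, here and within each genotype, also lack those of all tested genes beside them. The 3 smallest p were those of Ndufa5, at -0.25 ± 0.10, Ndufa12, at -0.70 ± 0.30, and Ndufa4, at -0.16 ± 0.07, each with an adjusted p of 0.9995 by edgeR. Without surrogate variables they were at -0.19, -0.68 and -0.09. Thalamic markers had an interaction median of 0.15 with surrogate variables and 0.97 without, and choroid plexus markers one of -1.13 and -0.41, and their part was not tested. For 73 of 79 members the 95% confidence interval of the interaction lay within 0.5 log2 of zero.

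**Figure D3:**
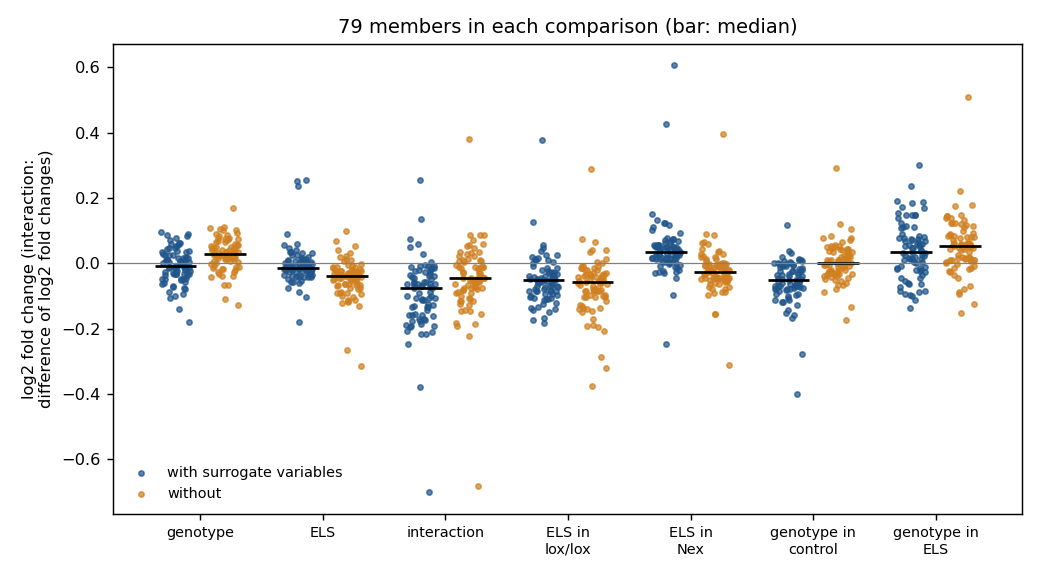
Log2 fold changes of the 79 members (points) in 7 comparisons, with (blue) and without (orange) surrogate variables, and their medians (bars). The medians lie between -0.07 and 0.05, and those of ELS in Fkbp5Nex, of genotype and of genotype in controls differ in sign between the fits.

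Ndufa12 differed from other members by its spread. Over the 24 mice its highest level was 3.61 times its lowest, while this ratio had a median of 1.60 and a next highest value of 2.13, in Uqcr11, over 72 subunits without alternative isoforms. Its lowest, median and highest levels were 29.1, 55.4 and 72.6 CPM in Fkbp5lox/lox control, 28.6, 42.6 and 58.7 in Fkbp5lox/lox ELS, 26.9, 36.6 and 97 in Fkbp5Nex control and 35.0, 66.7 and 70.0 in Fkbp5Nex ELS. In Fkbp5Nex ELS, mouse 60 was at 35.0 and the 5 others between 65.0 and 70.0 CPM. The ranges of all 4 groups overlapped. Ndufa12 (chromosome 10, 94198720 to 94221443, plus strand) overlaps no other annotated gene, and 36.2% of its principal transcript is matched by the pseudogene Gm15920.

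What the members shared was their variation between mice of the same group. After removal of group means, the Pearson correlation of a member with the mean of the other members had a median of 0.85 over 24 mice, which share 1 scaling per library, and was above 0.7 for 65 of 79 members and for 3.91% of the other 16130 tested genes. Without mouse 52 the median was 0.76, with 54 members above 0.7 and 1.62% of the other genes. The highest values were those of Ndufa4 at 0.97, Ndufs5 at 0.95 and Uqcrq at 0.95. For Ndufa4, mouse 52 was at 256 CPM and mouse 12 at 151, the extremes of all 24 mice, whose group medians were 186 to 196.

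The complexes ran together rather than apart. Correlations between the mean levels of any 2 complexes were between 0.79, for complexes II and IV, and 0.99, for complexes III and V. Without mouse 52 they lay between 0.64 and 0.98, for the same pairs. The mean level of complex IV was taken over 14 members, its 4 alternative isoforms included. The median for single members was 0.86 in complex I, 0.73 in complex II, 0.85 in complex III, 0.86 among the 10 main subunits of complex IV and 0.87 in complex V. The alternative isoforms stood apart, with Ndufa4l2 at 0.01, Cox6a2 at 0.08, Cox6b2 at 0.23 and Cox7a1 at 0.25, at counts of 12 to 103 where counting error is a large share of the spread. The non-subunits Atp5sl, at 0.32, and Atp5s, at 0.47, were also low, whereas Cox7a2l was at 0.79.

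Ndufb2 was the member with a negative correlation, at -0.60, and at -0.21 without mouse 52. That mouse had the lowest Ndufb2 level of all 24, 12.2 CPM, while 67 other members were at their highest in it. The exons assigned to Ndufb2 span 5628 bases in all, against 455 of its principal transcript. The correlation of Ndufb2 with Braf, which overlaps it, was 0.56, and 0.09 without mouse 52.

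**Figure D4:**
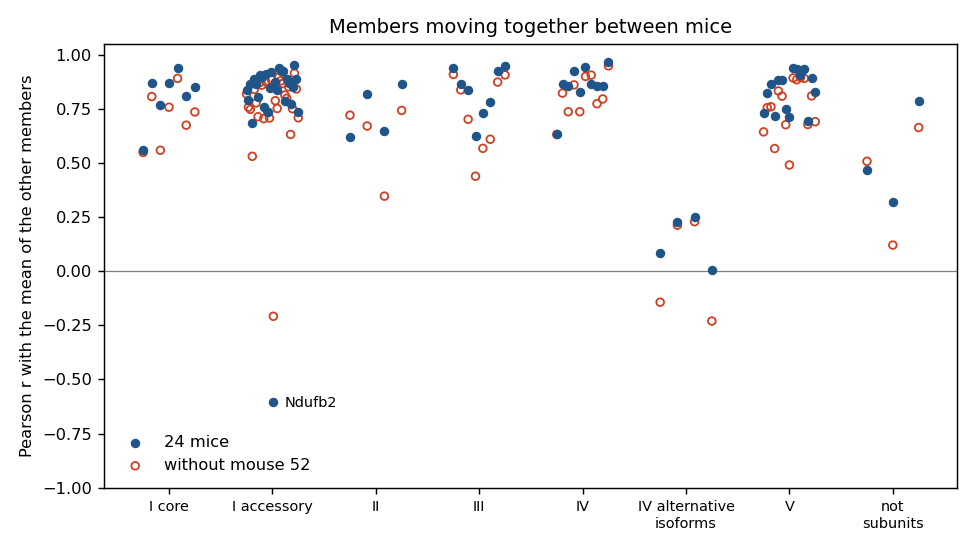
Pearson correlation of each member with the mean of the other members, on deviations from group means, by complex and class, for 24 mice (filled) and without mouse 52 (open). Most subunits lie above 0.7, the 4 alternative isoforms between 0.01 and 0.25, and Ndufb2 at -0.60.

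Genes of related mitochondrial functions were compared with the members in the same way. The mean of 73 mitochondrial ribosome genes, which translate the mitochondrially encoded subunits, correlated at 0.95 with the members' mean, and at 0.90 without mouse 52. The 41 assembly factors, which build the complexes without staying in them, were at 0.90, and at 0.87 without mouse 52. The 13 enzymes of the tricarboxylic acid cycle were at 0.79, and at 0.73 without that mouse. For 79 cytosolic ribosome genes the values were 0.72 and 0.50. The 8 genes of the pathway that the name rule leaves out had 0.77, and 0.63 without mouse 52. Of these, over 24 mice, Cox4i1, a main subunit of complex IV, was at 0.89. Cyc1, cytochrome c1 of complex III, was at 0.72, and Ndufab1, the acyl carrier protein of complex I, at 0.18.

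The 13 subunits encoded in mitochondrial DNA did not share the pattern, with 0.17, and 0.08 without mouse 52. Their single values ran from -0.34 for mt-Nd5 to 0.46 for mt-Nd3. The share of all counts on mitochondrial genes, 5.12% to 7.47%, had a correlation of 0.09 with the members' mean, and of -0.08 without mouse 52. In these libraries mt-Co2, mt-Co3 and mt-Atp6 averaged 123, 71.6 and 64.4 CPM against 19119 for mt-Co1, so their counts may not show their transcript levels.

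Regulators of mitochondrial biogenesis as a group went the other way, with -0.64 over 13 genes and -0.46 without mouse 52. The most negative was the coactivator gene Ppargc1b at -0.71. Its relative Ppargc1a was at -0.43, Yy1 at -0.51, Gabpa at -0.35 and Nrf1 at -0.31, while the nuclear receptor gene Esrra was at 0.59 and Tfam, which packages mitochondrial DNA, at 0.38. None of the genes on these 7 lists was called in any comparison with surrogate variables. With unadjusted p under 0.05 in the interaction, 14 of 79 cytosolic ribosome genes, 4 of 41 assembly factors, 2 of 73 mitochondrial ribosome genes and 1 of 13 mitochondrially encoded subunits were lower and 0 higher, beside 2.07% and 1.94% of all tested genes. These counts depended on the surrogate variables: without them 1 cytosolic ribosome gene and no gene of the other 6 lists had such a p, and the median of the cytosolic ribosome genes was -0.01 against -0.14.

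Transcript length varied with this pattern. The principal transcripts of the members had a median length of 838 bases, against 3022 for tested genes, and 59 of 79 members belonged to the tenth of tested genes with the shortest transcripts. The difference between the mean level of short and of long transcripts was taken with the members left out. It covered 1350 genes of at most 1267 bases and 1408 of at least 6474.5 bases. This difference correlated at 0.86 with the members' mean, and at 0.75 without mouse 52. Mouse 52 lay 3.77 pooled SD from its group mean in this difference. The members' mean minus that of the short transcripts correlated at 0.87 with the members' mean, with or without mouse 52. This measure contains the members' mean, so some correlation is built in. Mouse 52 lay 1.81 pooled SD from its group mean in it. The part of transcript length in the shared variation was not tested.

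By the correlation with the members' mean over 24 mice, the non-members most alike were Dynlrb1 (0.94), a dynein light chain, Edf1 (0.94), Ubb (0.93), a polyubiquitin gene, Txn1 (0.93), thioredoxin, and Hspe1 (0.93), a mitochondrial chaperonin. The most opposite were Ep300 (-0.90), an acetyltransferase, Setd5 (-0.90) and Med12 (-0.90), a subunit of Mediator. Principal transcripts of the 8 genes most alike were 366 to 1678 bases long, and those of the 8 most opposite were 2663 to 13834 bases. Markers of 9 cell types correlated with the members' mean between -0.14, for dentate gyrus granule cells, and 0.26, for GABAergic neurons. Without mouse 52 the range was -0.27, for dentate gyrus granule cells, to 0.34, for oligodendrocytes, with GABAergic neurons at 0.07.

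**Figure D5:**
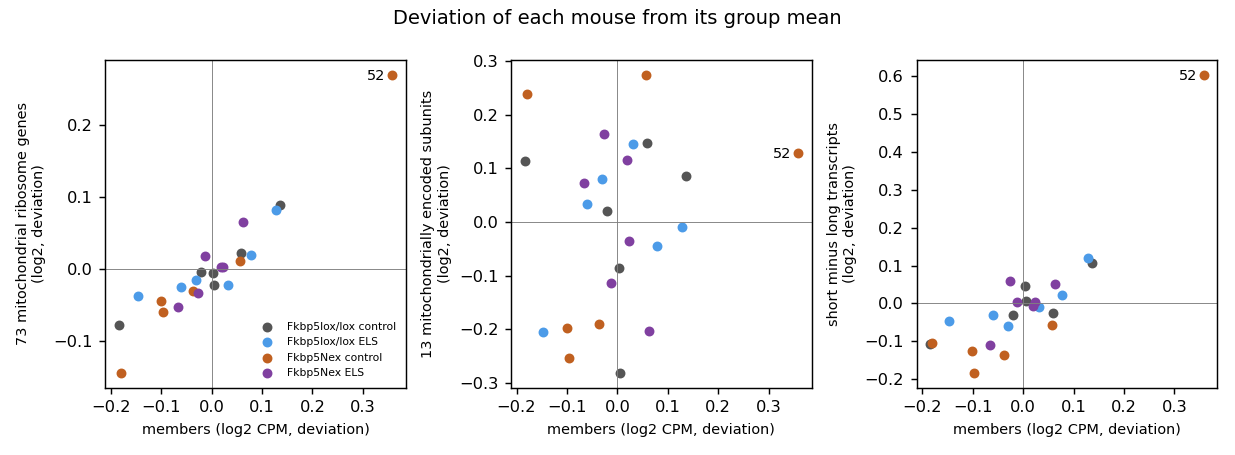
Deviation of each of 24 mice from its group mean for the members (horizontal, log2 CPM) against mitochondrial ribosome genes, mitochondrially encoded subunits and the difference between short and long transcripts (vertical, log2), coloured by group. The ribosome genes and the length difference rise with the members (0.95 and 0.86), the mitochondrially encoded subunits do not (0.17), and mouse 52 lies at the upper right.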

How the data were processed

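The deposited table holds raw counts of reads per gene from hippocampal mRNA of 24 mice. The sequencing company had removed low-quality reads, aligned read pairs with HISAT2 2.0.5 and counted with featureCounts 1.5.0-p3, as the submitters' processing notes also state. The genome build, annotation, strand setting and treatment of multiply aligned reads are not given in the sources used here. Samples were grouped by their labels, and no other per-sample column was used. Here, counts were scaled by TMM and tested with edgeR 4.0.16 in R 4.3.3, with surrogate variables from sva 3.50.0, over genes that reached 10 counts in all 6 mice of any group, at a Benjamini-Hochberg adjusted p under 0.02. The steps were tested on simulated data. Levels used a prior count of 2 in log2 CPM, and FPKM used principal transcript lengths of GENCODE vM21. Totals of 18347283 to 26555623 counts per mouse limit the precision of members near 10 counts. Alternatives were no surrogate variables, DESeq2 1.42.0 (size factors and Wald test), other scalings and filters, an FDR of 0.05, the 12 mice compared, subunits only, and leaving out each mouse.

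The members and lists were chosen with earlier results of these data known. Named genes were the 2 highest and the lowest member per length in each complex, the 3 with the smallest p in each comparison, isoform families, the 3 highest and 3 lowest correlations, and the core subunits of complexes I and II, of which 1 is not reported here. Atp5s, Cox4i1, Cyc1, Ndufab1, Uqcr11, Atp5l and the named genes of related lists are not covered by it and were picked once their values were known.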

Additional observations from a re-analysis of the deposited data

Results flagged for a closer look

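Among 204 pairs of a group and a measure (45 named members and 6 summary levels in 4 groups of 6 mice), 18 held a mouse whose gap to the nearest of its group was above 0.625 of the group's range, Dixon's critical value. Chance flags about 1 in 20 groups, and the members are correlated, so these are not 18 separate events. In log2 CPM, Fkbp5Nex control mouse 52 was far above its group for Sdhc (6.74), Sdhd (6.85), Ndufs3 (6.61), Uqcrq (6.98), Cox7a2 (6.90), Cox7a2l (7.33) and Atp5g2 (6.45), and far below it for Ndufb2 (3.62). Mouse 12 of that group was far below for Sdha (8.48), Ndufs1 (6.81) and Atp5a1 (9.43). In Fkbp5Nex ELS, mouse 60 was far below for Sdha (8.65), Ndufa12 (5.13, next 6.02) and Cox6a2 (0.22), mouse 66 was below for Uqcr10 (5.89) and mouse 10 above for Atp5sl (5.54). In Fkbp5lox/lox, control mouse 44 was below for Atp5g1 (6.14) and ELS mouse 68 below for Atp5g3 (7.15).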

How the results depend on the processing

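In each of the 7 comparisons 0 members were called under every alternative run, including DESeq2's Wald test, an FDR of 0.05 and each of 24 mice left out. At an unadjusted p under 0.05 members numbered as reported with surrogate variables and 0 without them. The median log2 fold change was so small that its sign depended on the alternative in some comparisons. Apart from the mice left out, it ranged from -0.02 to 0.03 for genotype and -0.03 to 0.06 for ELS in Fkbp5Nex. It ranged from -0.04 to 0.00 for ELS and -0.08 to 0.00 for genotype in controls. The median kept its sign in the other comparisons. Over the mice left out it ranged from -0.02 to 0.03 for genotype, -0.03 to 0.01 for ELS and -0.15 to -0.05 for the interaction. It ranged from -0.08 to -0.03 for ELS in Fkbp5lox/lox, 0.01 to 0.08 for ELS in Fkbp5Nex, -0.09 to 0.00 for genotype in controls and 0.00 to 0.06 for genotype in ELS. Of members named singly, Uqcrb in ELS within Fkbp5Nex changed sign, from 0.1249 to -0.0305 without surrogate variables, and the cause was not tested. The fit without surrogate variables and mouse 52 was chosen after seeing the data, and gave 0 members called in each comparison. No paired analysis was possible because each mouse has its own number and no number is shared between groups. With 6 mice a group, differences of a few percent lie within the standard errors, and the lowest isoforms are limited by counting error.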
